A study of Rattus norvegicus with 12 samples.

Results

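The genes described here are 10 known for high expression in the choroid plexus: Ttr, Folr1, Kl, Prlr, Kcne2, Kcnj13, Clic6, Aqp1, Slc4a5 and Otx2. They were chosen by symbol, after earlier results of these data had shown that several of them were far higher in 1 library than in the others, so their levels are given as a description with no test. Of the 10 genes, 9 had a row among the 15939 genes of the deposited table of normalized counts, and Otx2, a homeodomain transcription factor of the choroid plexus, was not analysed here.

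RNA was sequenced from the medial prefrontal cortex of Wistar rats at 2 ages, 3 months (young) and 22 months (aged). At each age some rats performed an attention task in an operant chamber and others did not. The nonperforming rats of each age were exposed to the same context as the performing ones but took no part in the task. There were 3 libraries in each of the 4 groups, coded Y or A for young or aged, then N or P for nonperforming or performing, then the replicate, so that YN3 is the third library of young nonperforming rats. The titles of YN1 and YP1 begin with VP and those of all others with U, so the VP prefix falls in young groups only. The labels do not say that the libraries of a group came from separate rats, so p-values measure only the spread between these libraries.

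The choroid plexus is a folded tissue inside the brain ventricles, made of a single layer of secretory epithelial cells around leaky capillaries. Its epithelium makes cerebrospinal fluid by moving ions and water across the cell, holds the barrier between blood and fluid with tight junctions, and carries vitamins and hormones into the brain. It is not a part of the prefrontal cortex, and its epithelial genes are used as signs of choroid plexus RNA in brain dissections, although several of them are also active in meninges, olfactory tissue, blood or neurons.

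The table held from 22189094 to 42205582 reads per library. Cortical neuron markers were present in all 12 libraries, with Slc17a7, the glutamate transporter of cortical excitatory neurons, between 21896 and 42470 normalized counts. Summed over 8 cortical neuron genes, YN3 was the lowest library, at 66124 against 70514 to 112070. It was the lowest for 3 of the 8 (Tbr1, Rbfox3 and Gad2), as it was for 4265 of all 15939 genes. Some libraries stood apart in markers of other tissues. YP2, AP1 and AP3 carried RNA of the olfactory bulb: Cdhr1, a gene of bulb output neurons, stood at 6016, 5231 and 8405 normalized counts there, against 297 to 1866 in the other libraries. AN3 had the highest summed red cell markers (5 genes, 38405, against 1347 to 14979 in the young nonperforming group). YN3 stood apart over the whole table: the chi-squared per degree of freedom of its reads against any other library was 242 to 438, against 6.94 to 182 between the other 11. In bulk tissue, fewer cells of a type and less RNA per cell cannot be told apart.

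Among the 9 genes, 4 stood far above every other library in YN3: Ttr, Folr1, Kl and Kcne2 were at least 5 times as high there as in the next library, as were 14 of all 15939 genes with 1 added to both values (0.0878%). Clic6 was also highest in YN3, but it was raised as well in the libraries rich in bulb RNA and in AN3. Kcnj13, Aqp1 and Slc4a5 reached similar or higher levels in libraries other than YN3, and Prlr stood at a like, low level in YN3 and most other libraries. YN3 was the highest of the 12 libraries for 7 of the 9 genes and for 27.5% of all genes of the table. Because these genes were chosen on that library, nothing is read from the difference between the shares.

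Ttr encodes transthyretin, which binds thyroid hormone and the retinol carrier and is the main secreted protein of the choroid plexus. In young nonperforming rats, Ttr (ENSRNOG00000016275) stood at 17.3 normalized counts in YN1, 7.5 in YN2 and 37304 in YN3. In young performing rats it stood at 37.4, 20.1 and 57.3, in aged nonperforming rats at 1.15, 17.2 and 37.6, and in aged performing rats at 10.3, 7.12 and 91.9. YN3 alone was high, and the other 11 libraries lay between 1 and 93 reads. The YN3 value came from 48572 reads, with an exact 95% Poisson interval of 36973 to 37637 normalized counts that covers counting error only. It was 406 times the next value, that of AP3, and made up 99.2% of the sum over all 12 libraries. The mean of young nonperforming rats was 12443 ± 21530 (SD, n = 3) with YN3 and 12.4 (n = 2) without it.

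**Figure D1:**
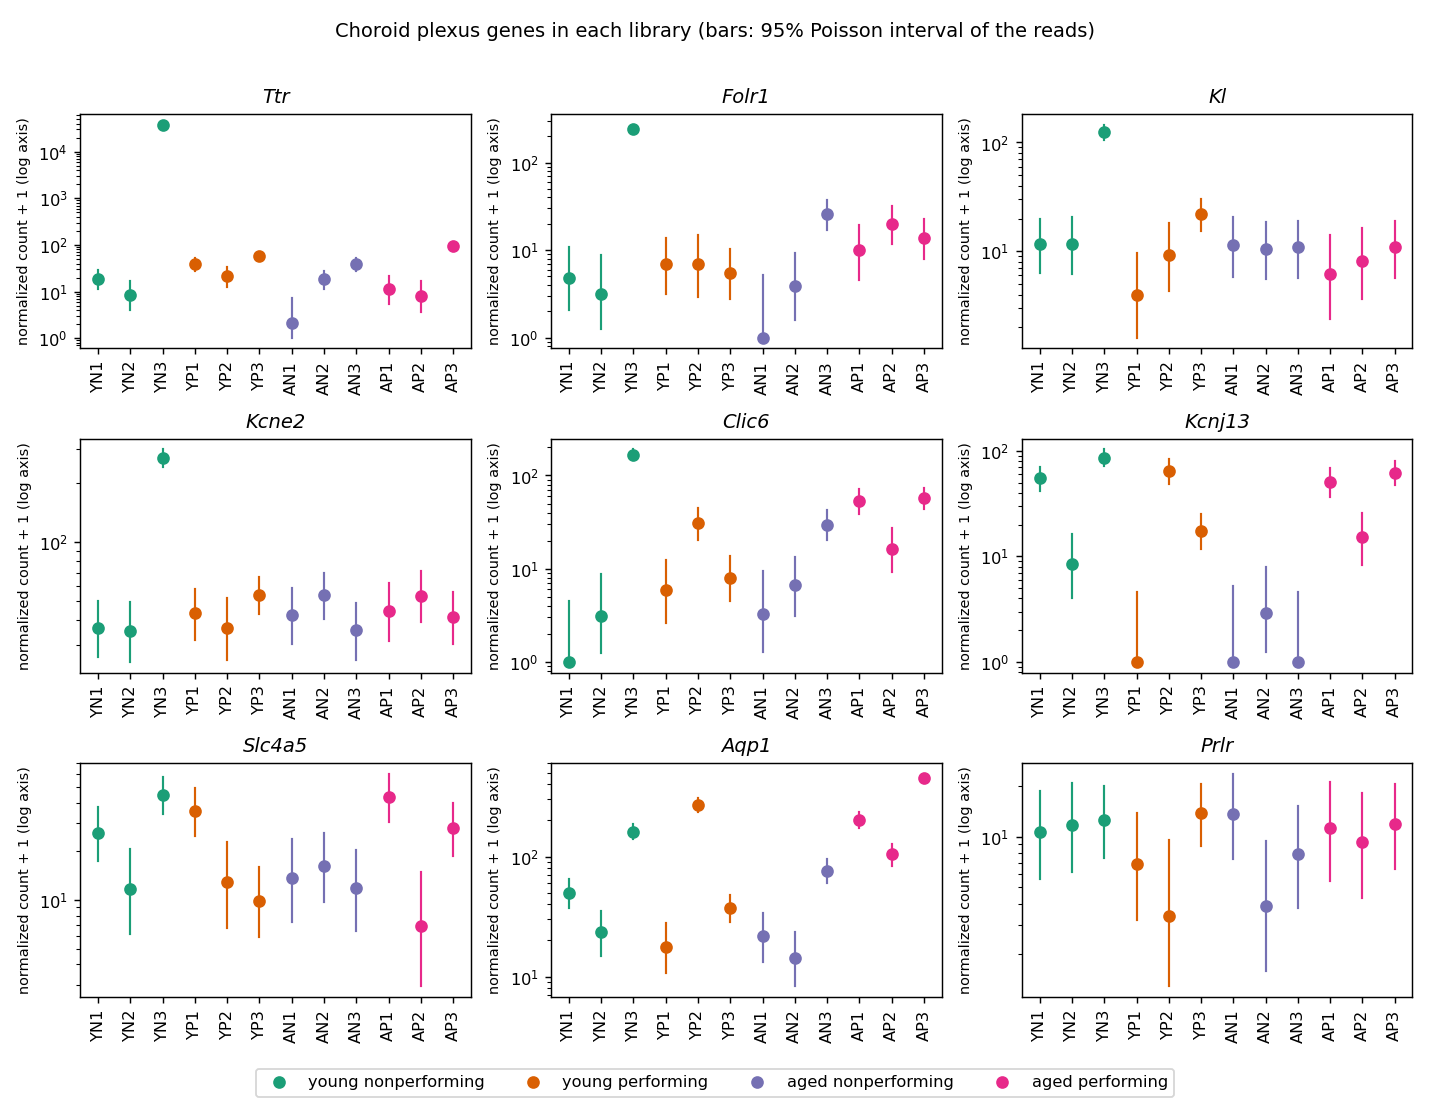
Normalized counts of the 9 choroid plexus genes, 1 panel per gene, with 1 point per library and the 4 groups side by side; the vertical axis is logarithmic. The YN3 point of Ttr is at 37304 and its other 11 points reach 91.9 at most, while Aqp1 is highest in AP3 (446.6).

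The receptors among the genes differed from one another. Folr1 encodes folate receptor alpha, through which the choroid plexus takes folate from blood into cerebrospinal fluid. Folr1 (ENSRNOG00000019902) stood at 3.85, 2.14 and 241.2 normalized counts in YN1, YN2 and YN3, and at 5.91, 5.91 and 4.46 in YP1, YP2 and YP3. It stood at 0, 2.86 and 24.7 in AN1, AN2 and AN3, and at 8.99, 19.0 and 12.8 in AP1, AP2 and AP3. YN3 was 9.76 times as high as the next library, AN3, on 314 reads against 25, and held 72.7% of the sum over libraries. The 0 in AN1 allows a level of up to 3.46 normalized counts, the value of 3 reads there. Without YN3, AN3 and the 3 aged performing libraries were the highest, on 7 to 25 reads each.

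Kl encodes klotho, the co-receptor for the hormone FGF23, made by the choroid plexus and by the kidney. Kl (ENSRNOG00000001092) stood at 10.6, 10.7 and 123.7 normalized counts in young nonperforming rats, and at 2.96, 8.28 and 21.0 in young performing rats. It stood at 10.4, 9.55 and 9.88 in aged nonperforming rats and at 5.14, 7.12 and 9.88 in aged performing rats. YN3, with 161 reads, was 5.89 times the next library, YP3, and held 54% of the sum. The other libraries had 3 to 33 reads each, a level at which most of them differ by no more than counting error.

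Prlr encodes the prolactin receptor, which in the choroid plexus binds circulating prolactin. Prlr (ENSRNOG00000057557) ranged from 2.37 to 12.7 normalized counts over the 12 libraries, on 2 to 20 reads. YN3, at 11.5, was the third highest and overlapped the others. The library with a Ttr level 406 times the next thus had no raised Prlr at this depth.

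The channel genes included both patterns. Kcne2 encodes a small subunit that joins potassium channel pores and sits in the apical membrane of the choroid plexus. Kcne2 (ENSRNOG00000029811) stood at 35.6, 34.3 and 268.8 normalized counts in young nonperforming rats and at 42.4, 35.5 and 52.8 in young performing rats. It stood at 41.6, 52.5 and 34.6 in aged nonperforming rats and at 43.7, 52.2 and 40.5 in aged performing rats. Unlike Folr1 and Ttr, it had a steady level in all libraries besides YN3, on 30 to 83 reads each. YN3, on 350 reads, was 5.09 times the next library, YP3, and its 36.6% of the sum was smaller than for Ttr, Folr1 and Kl. Kcne2 and Clic6 lie close together on chromosome 11 of the GRCr8 assembly, with 7 genes between them, 5 of them protein coding.

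Clic6 encodes a chloride intracellular channel protein. Clic6 (ENSRNOG00000026870) stood at 0, 2.14 and 166.7 normalized counts in young nonperforming rats and at 4.93, 29.6 and 7.0 in young performing rats. It stood at 2.31, 5.73 and 28.7 in aged nonperforming rats and at 52.6, 15.4 and 56.3 in aged performing rats. YN3 was 2.96 times AP3, the next library, and the 0 in YN1 allows up to 2.89, again the value of 3 reads. Apart from YN3, the 3 libraries rich in bulb RNA (29.6 to 56.3) were all above the other 8 (0 to 28.7, median 5.33), with AN3, the highest of the 8, within counting error of YP2.

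Kcnj13 encodes the inward rectifier potassium channel Kir7.1. Kcnj13 (ENSRNOG00000016057) stood at 53.9, 7.5 and 85.2 normalized counts in young nonperforming rats and at 0, 63.9 and 16.5 in young performing rats. It stood at 0, 1.91 and 0 in aged nonperforming rats and at 50.1, 14.2 and 61.3 in aged performing rats. Here YN3 was the highest library but only 1.33 times YP2, and the intervals for counting error (70.1 to 102.7 against 48.0 to 83.3) overlapped. By the same limit of 3 reads, the zeros allow up to 2.96 in YP1, 3.46 in AN1 and 2.97 in AN3. In the GRCr8 annotation Kcnj13 lies across Gigyf2, so reads of the pair are told apart only if the counting used strand, which is not given in the sources used here.

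Aqp1 encodes the water channel aquaporin 1, which is also abundant in red cells and in some sensory fibres. Aqp1 (ENSRNOG00000011648) stood at 49.1, 22.5 and 160.5 normalized counts in young nonperforming rats and at 16.8, 266.1 and 36.3 in young performing rats. It stood at 20.8, 13.4 and 75.1 in aged nonperforming rats and at 200.3, 103.2 and 446.6 in aged performing rats. YN3 was only the fourth highest, at 0.359 of AP3. All 3 libraries rich in bulb RNA (200.3 to 446.6) were above YN3 and above the other 8 libraries (13.4 to 103.2).

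Slc4a5 encodes a sodium bicarbonate cotransporter of the apical choroid plexus membrane. Slc4a5 (ENSRNOG00000010378) ranged from 5.93 in AP2 to 43.8 in YN3 normalized counts, with 42.4 in AP1, 34.5 in YP1, 26.7 in AP3 and 25.02 in YN1. The YN3 and AP1 values came from 57 and 33 reads, and their intervals (33.2 to 56.7 and 29.2 to 59.5) overlapped almost entirely. YN3 was thus the highest library by less than counting error, and the 3 libraries rich in bulb RNA were spread over the range (11.8 to 42.4). It overlaps a long noncoding RNA gene in GRCr8.

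The proportions of the genes to Ttr differed between YN3 and the other libraries. In YN3 there were 4.47 normalized counts of Clic6 for every 1000 of Ttr, and in AP3 there were 612.9. At the YN3 ratio, the Ttr level of AP3 would go with 0.411 of Clic6 (measured 56.3), 0.395 of Aqp1 (measured 446.6), 0.21 of Kcnj13 (measured 61.3) and 0.594 of Folr1 (measured 12.8). In AN3 the same ratio would give 0.243 of Folr1 (measured 24.7) and 0.168 of Clic6 (measured 28.7). In these examples the measured levels were far above those that go with Ttr at the YN3 proportions. Because Ttr was extreme in YN3, that ratio gave at most 0.662 (Kcne2 in AP3) for any gene in any other library. Almost any read exceeds such a value, so nothing is read from the excess. Where Kcnj13 (YP1, AN1 and AN3), Clic6 (YN1) or Folr1 (AN1) had 0 reads, no such excess was detectable.

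By the fixed measure of likeness to Ttr, the ratio of YN3 to the highest other library with 1 added to both, 1 of the 9 genes (Ttr) was at least 10 times as high in YN3, as were 4 of all 15939 genes (0.0251%). Among genes with at least 50 normalized counts in YN3, Ttr ranked first, Folr1 5th, Kl 10th, Kcne2 14th and Clic6 25th, while Kcnj13 ranked 1746th and Aqp1 10113th. This order is over all genes and describes 1 library.

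**Figure D2:**
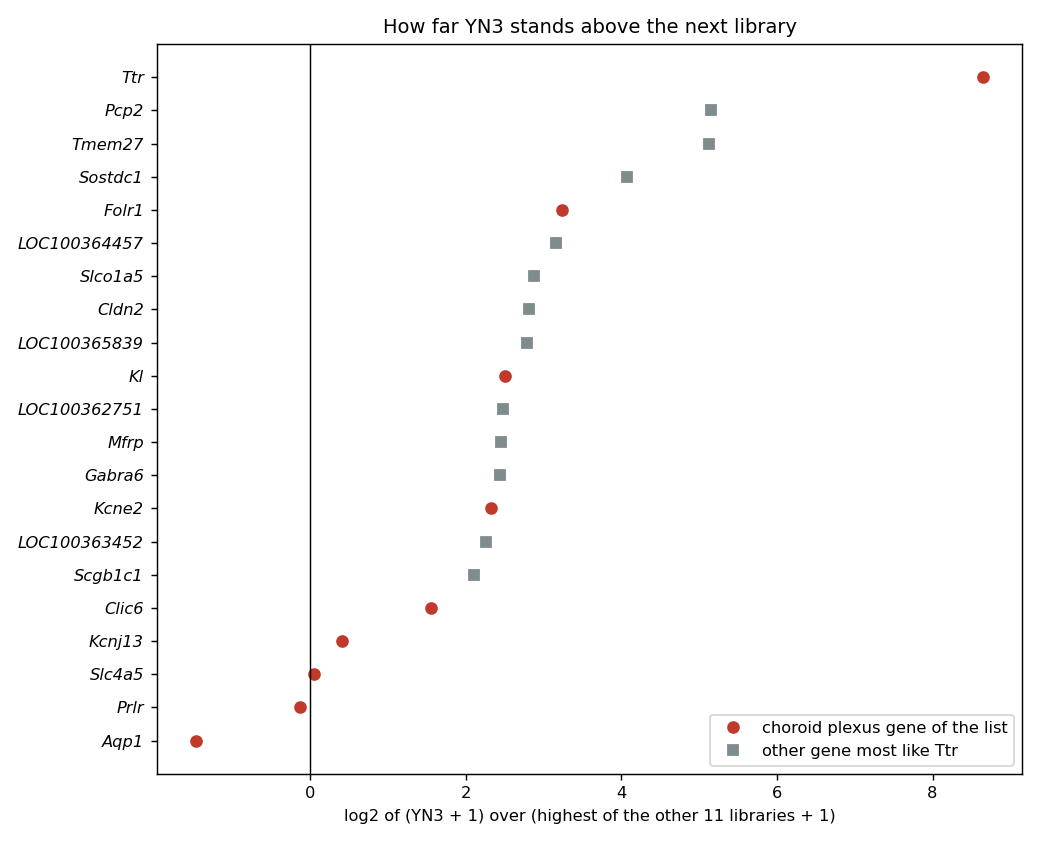
Log2 ratio of YN3 to the highest of the other 11 libraries (1 added to both) for the 9 choroid plexus genes (circles) and the 12 other genes most like Ttr (squares). Ttr lies at 8.65, Folr1 at 3.24, Kl at 2.50 and Kcne2 at 2.33, while Aqp1 lies at -1.47.

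The 12 other genes most like Ttr included 3 of a wider list of choroid plexus genes. Sostdc1, a secreted inhibitor of BMP and Wnt signals, stood at 132.1 normalized counts in YN3 against 6.92 at most elsewhere. Cldn2, a claudin of leaky tight junctions, had 123.7 against at most 16.8, and Slco1a5, an organic anion transporter, at 53.8 against 6.43 or less. Mfrp, a membrane frizzled-related protein gene, stood at 178.2 against 31.6 or less, and Tmem27 (collectrin) at 102.9 against 1.98 or less. Scgb1c1, a secretoglobin gene, stood at 96 against 21.6 or less. The group also held genes known from another brain region: Pcp2, a marker of cerebellar Purkinje cells, at 245 against 5.91 or less, and Gabra6, a GABA receptor subunit of cerebellar granule cells, at 122.9 against 21.9 or less. The remaining 4 (LOC100364457, LOC100365839, LOC100362751 and LOC100363452) have no named product in the table. These genes were picked for their lead in YN3, so their high values there are a description.

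The wider list named 42 genes, of which 30 had a row and were not among the 10. YN3 was the highest library for 10 of the 30, against 27.5% of all genes. It was at least 5 times the next for Sostdc1, Slco1a5 and Cldn2, against 0.0878% of all genes. Calml4, a calmodulin-like gene, had 193.5 in YN3 against at most 45 elsewhere, and Tmem72, a membrane protein gene, at 76.8 against 39.5 or less. Other genes of the list had no such lead. Igfbp2, which binds insulin-like growth factors, stood at 1979 in YN3 and 2036 in AP3. Enpp2 (autotaxin) stood at 2200 in YN3, within the 1624 to 3120 of the others, and Slc13a4, a sulfate transporter, at 134 in YN3 and 656 in AP3. The median log2 ratio of YN3 to the highest other library was -0.24 for the 30 genes and -0.53 for all genes. YN3 was thus not the highest library for most of the 30 genes. The same held for most genes of the table, so nothing is read from that count.

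**Figure D3:**
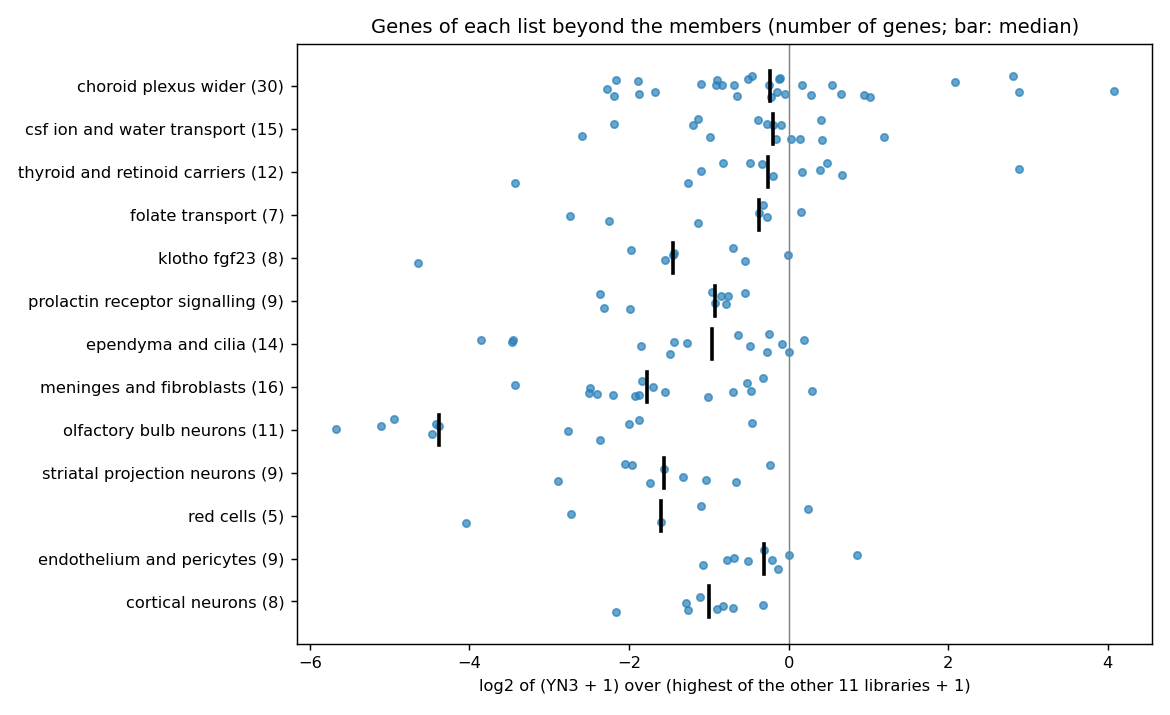
Log2 ratio of YN3 to the highest other library (1 added to both) for each gene of 13 lists, leaving out the 9 choroid plexus genes; bars are list medians and the number of genes follows each name. The wider choroid plexus list reaches the largest ratios, with Sostdc1 at 4.07, while the olfactory bulb list has a median of -4.38.

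Genes that work with the 9 were followed as lists. Of 15 other genes for ion and water transport into cerebrospinal fluid, YN3 was the highest library for 5, the largest lead being 2.54-fold for Kcnq1, a potassium channel pore that can pair with Kcne2, at 13.1 normalized counts against 5.14. For 12 other carriers and receptors of thyroid hormone and retinoids it was highest for 5, with Slco1a5 the only one at least 2-fold above the next. Of 7 other folate genes it was highest for 1, Slc19a1, the reduced folate carrier, at 291.1 against 260.8. It was highest for 0 of 8 other genes of the klotho and FGF23 pathway and 0 of 9 others of prolactin receptor signalling. Among all genes of the table YN3 was the highest for 27.5%, so nothing is read from these counts. Apart from Slco1a5 and Kcnq1, none of the other genes in these 5 partner lists led by 2-fold in YN3. Each list was also read in the fit across all genes described below, and 0 genes of any list passed in any contrast.

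Markers of other tissues were set beside these genes. YN3 was the highest library for 1 of 16 meningeal genes (Mgp), 0 of 11 bulb genes and 2 of 14 ependymal and cilia genes (Rarres2 and Rsph1). It was also the highest for 1 of 5 red cell genes and 2 of 9 endothelial genes (Cldn5 and Kcnj8). The share over all genes was 27.5%. Among these marker genes only Cldn5, a claudin of brain capillaries, led by more than 1.5-fold, at 8624 against 4741. The 5 red cell genes summed to 14979 in YN3, the highest of the 6 young libraries, and their part in its other levels was not tested. The 11 bulb genes summed to 2413 in YN3 and the 16 meningeal genes to 24450, the highest sums of the 3 young nonperforming libraries. Ptgds alone gave 18609 of the meningeal sum. By the mean of centred log2 levels, YN1 was above YN3 for both lists (meningeal 0.559 against 0.096, bulb -0.879 against -0.906). AP3 had far larger sums for both lists, at 18598 and 53459. In AP3, Ttr, Folr1, Kl and Kcne2 stood at 91.9, 12.8, 9.88 and 40.5.

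Outside YN3, Kcnj13 followed the meningeal genes. Over the other 11 libraries, its log2 level and the mean log2 level of the 16 meningeal genes gave a Pearson r of 0.959 and a Spearman rho of 0.973, and an r of 0.98 over 9 libraries without the pair farthest from the median. YN1, which had no excess of bulb genes, held 53.9 of Kcnj13 along with 168.4 of Slc22a6, an organic anion transporter of the meninges, and 1956 of Igf2, a growth factor of meninges and choroid plexus. The 3 libraries with Kcnj13 at 0 had 9.88 to 25.4 of Slc22a6 and 157 to 247 of Igf2. For Aqp1 and the meningeal genes r was 0.813, rho 0.764 and r without the pair 0.608, and for Clic6 the values were 0.434, 0.527 and 0.085. For Ttr they were 0.377, 0.355 and 0.124, for Folr1 0.29, 0.318 and 0.198, and for Kcne2 -0.143, 0 and 0.08. These are descriptions among 54 such pairs; the points share their normalization, and low counts of Ttr and Folr1 leave weak values uninterpretable.

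Bulb scores fell into separate groups of libraries, so no pooled correlation is given for them. In the 3 libraries richest in bulb genes, Aqp1 and Clic6 were above all 8 others besides YN3, and Kcnj13 was above them in 2 of the 3, YN1 being the exception. Ttr was above the 8 in AP3 only, Slc4a5 in AP1 only, and Folr1, Kl, Kcne2 and Prlr in none. The ependymal and cilia score averages the 13 listed genes with at least 10 normalized counts in at least 3 libraries. These scores also fell apart, with YP2, AP1, AP3 and AN3 at 0.54 to 1.28 and the other 7 libraries besides YN3 at -0.71 to -0.28. Clic6 was higher in all 4 of those libraries (28.7 to 56.3) than in the 7 (0 to 15.4). Folr1 had its highest value outside YN3 in AN3, but its next highest, 19.0, in AP2, which is among the 7. Meningeal and bulb markers were both high in these 3 libraries, as were ependymal ones, so the share of each in the levels of Aqp1 and Clic6 cannot be told apart.

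**Figure D4:**
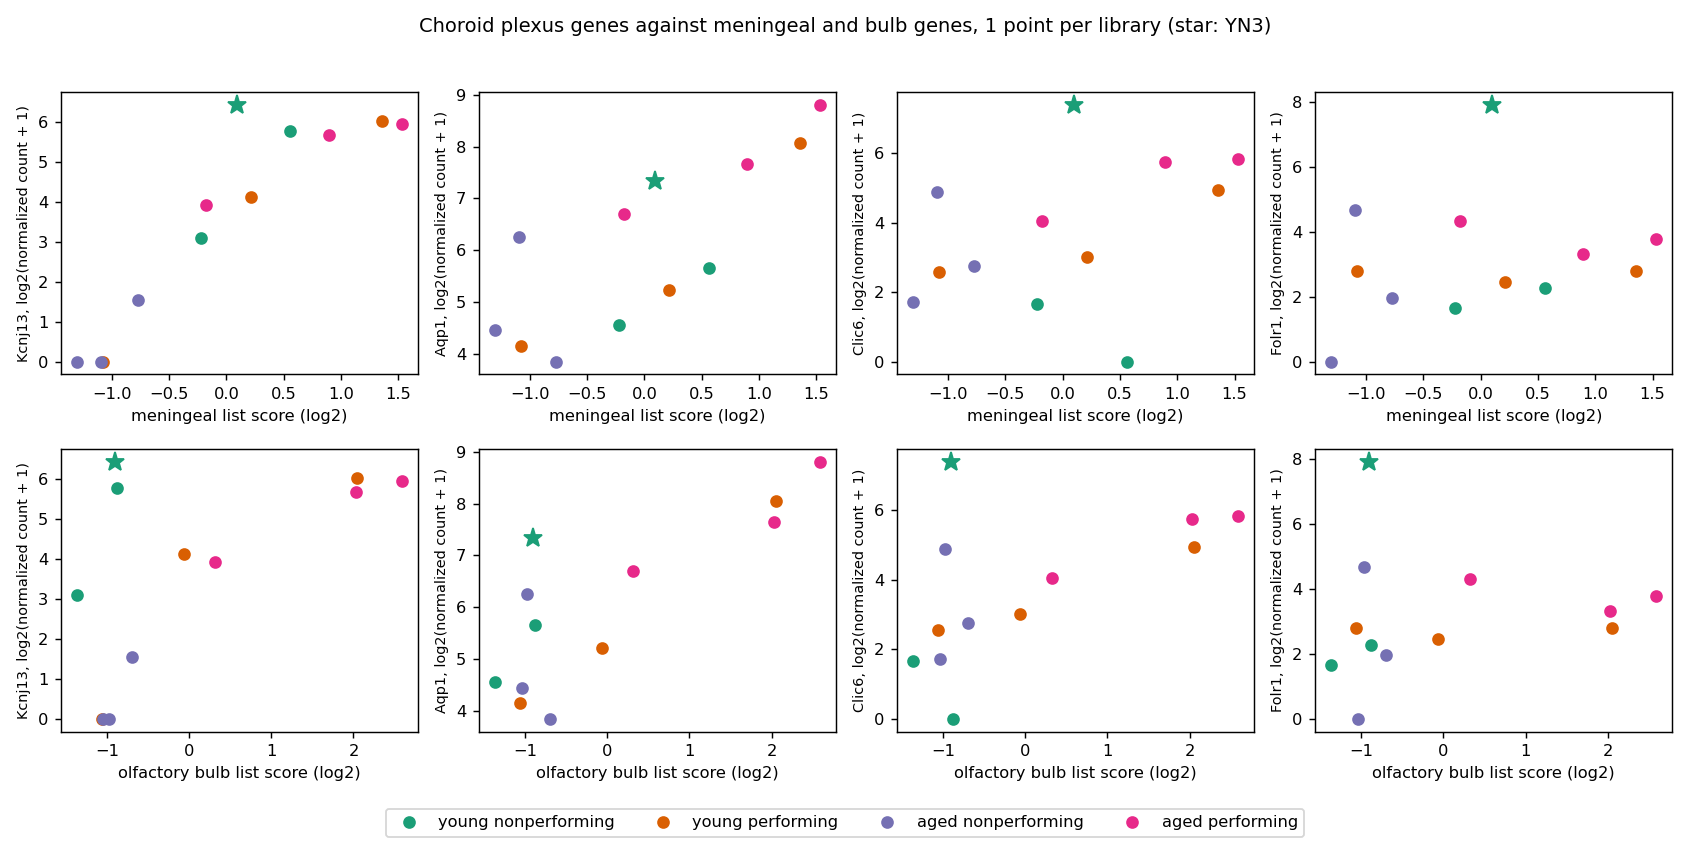
Log2(normalized count + 1) of Kcnj13, Aqp1, Clic6 and Folr1 against the score of the meningeal list (top) and of the bulb list (bottom), where a score averages the listed genes on the log2 scale after centring each gene; 1 point per library, the star being YN3. Kcnj13 climbs with the meningeal score (r 0.959 over 11 libraries), and Folr1 stays low in the other libraries at any score.

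In these libraries, then, Ttr, Folr1, Kl and Kcne2, with Sostdc1, Cldn2, Slco1a5 and Calml4 from the wider list, were high in YN3 and far lower in every other library, those rich in bulb or meningeal RNA included. At that low level Cldn2 still had its next highest values in libraries rich in meningeal genes (16.8 in AP3, 13.01 in YP2, 12.5 in YN1 and 10.3 in AP1, against 0 to 4.46 in the other 7). Sostdc1 had 6.92 in AP3, 5.91 in YP2 and 3.85 in AP1, against 0 to 2.55 in the other 8. Clic6 was high in both kinds of library. Kcnj13, Aqp1 and Slc4a5 did not single out YN3, and Prlr stayed on low counts in all 12 libraries. Kcne2, although it led in YN3, kept a steady level of 34.3 to 52.8 in the other 11 libraries. YN3 held 36.6% of the Kcne2 sum, against 99.2% for Ttr. The wider-list genes named here were picked for their lead in YN3, which was the highest library for 10 of the 30. A lead in YN3 was also held by Pcp2 (245 against at most 5.91) and Gabra6 (122.9 against at most 21.9), genes known from the cerebellum. Since the grouping rests on 1 library, it has no replicate.

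The promoters of the genes are shown for 3 of the 6 that had an entry in the RefSeq promoter table (GRCr8 assembly): Kl from those that led in YN3, and Kcnj13 and Aqp1 from those that did not. Each stretch is the 250 bases before an annotated transcript start, 5′ to 3′ on the strand of the gene, with capitals for a TATAAA match. Kl lies at chr12:5325753-5326002 on the plus strand, Kcnj13 at chr9:95518987-95519236 on the minus strand and Aqp1 at chr4:85812534-85812783 on the plus strand. The Kcnj13 stretch lies within the span of its gene (chr9:95509228-95528400), so it belongs to an internal start.
Kl: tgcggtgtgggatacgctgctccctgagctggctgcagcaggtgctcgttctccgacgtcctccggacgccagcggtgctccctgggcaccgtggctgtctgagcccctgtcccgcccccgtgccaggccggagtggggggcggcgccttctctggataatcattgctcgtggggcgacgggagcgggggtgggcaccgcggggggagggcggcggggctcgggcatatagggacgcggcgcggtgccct
Kcnj13: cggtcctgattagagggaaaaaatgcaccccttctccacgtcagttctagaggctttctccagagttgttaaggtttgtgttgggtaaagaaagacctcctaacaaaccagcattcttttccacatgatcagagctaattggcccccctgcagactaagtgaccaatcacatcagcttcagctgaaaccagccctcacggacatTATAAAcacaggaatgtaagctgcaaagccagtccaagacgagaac
Aqp1: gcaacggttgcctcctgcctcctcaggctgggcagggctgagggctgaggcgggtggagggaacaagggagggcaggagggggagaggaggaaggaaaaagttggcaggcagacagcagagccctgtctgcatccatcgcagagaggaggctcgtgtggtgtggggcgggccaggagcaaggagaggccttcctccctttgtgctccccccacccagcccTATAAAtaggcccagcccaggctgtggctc
The Kl stretch is 73.2% G and C with 27 CpG pairs, that of Kcnj13 46.8% with 4, and that of Aqp1 65.2% with 5, against medians of 51.2% and 5 over 33469 promoters. Ttr had 40.4% and 3, in a stretch (chr18:12218508-12218757) within its gene, whose span starts at 12216684. The stretches of Slc4a5 and Prlr also lay within their genes. TATAAA, searched on both strands over the 250 bases before and 50 after the start, was found in 2 of the 7 promoter entries of these genes (Kcnj13 and Aqp1, near the start in each) and in 14.2% of all promoters. TAATCC, the core bound by OTX and other homeodomain proteins, was found in 0 of the 7 and in 7.17% of all. GTAAACA, a forkhead motif, was in 0 of the 7 and 3.78% of all, and GTTGCCA, an RFX motif, in 0 of the 7 and 4.56% of all. These matches are letters in a window, say nothing of binding and do not cover other starts of the genes.

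The 4 groups were compared to ask how age and task performance bear on these genes. None of the 9 genes passed in any of the 7 contrasts, and neither did any other gene (limma on log2(normalized count + 1), 13496 genes tested, adjusted p under 0.05, 0% called in each). At an unadjusted p under 0.05 there were from 139 genes (interaction) to 1368 (performance averaged over age), and edgeR also called 0, while DESeq2 called up to 114. All 9 genes passed the filter on low values.

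Among young nonperforming rats, YN3 set the sign or the size of most differences. Comparing aged with young nonperforming rats, the log2 difference of Ttr was -3.97 ± 2.52 (SE), with an adjusted p of 0.727 from limma, and it was -0.12 without YN3. For Folr1 it was -1.74 with YN3 and 0.25 without, for Kcne2 -0.70 and 0.27, and for Kl -1.23 and -0.09. For Clic6 it was 0.11 with YN3 and 2.30 without. Thus the difference shrank to near 0 or turned for all 4 genes led by YN3, and grew for Clic6. The median over the 9 genes was -1.0 with YN3 and -0.12 without, against 0.006 and -0.003 over all genes.

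Kcnj13 kept the direction of its difference in this comparison without YN3. Its aged nonperforming values (0, 1.91 and 0) were all below the young ones (7.5, 53.9 and 85.2), with a log2 difference of -4.59 ± 1.34 (SE) and an adjusted p of 0.727 from limma. Without YN3 the difference was -3.92 with an adjusted p of 1.0, and with all libraries it was -5.31 at a pseudocount of 0.5 and -2.86 at 5, since the aged libraries had 0 to 2 reads. The meningeal genes were lower in the same direction: 16 of 16 tested had a lower mean in aged nonperforming rats (median log2 difference -1.23), and their part in the Kcnj13 difference was not tested. Kl was the other gene with no overlap here, but its closest values, 10.6 and 10.4, came from 11 and 9 reads. Groups lay apart in this direction for 2 of the 9 genes and for 4.26% of all genes tested.

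For young performing against young nonperforming rats, the same library entered as the reference. Ttr differed by -2.31 with YN3 and by 1.54 without it, Folr1 by -1.27 and 0.71, Kcne2 by -0.68 and 0.29, and Clic6 by 0.49 and 2.68. Kl differed by -1.46 and -0.32. Groups lay apart for 0 of the 9 genes, against 2.94% of all genes in the higher direction and 1.87% in the lower, and the smallest adjusted p among them was 0.997 (limma). The sign of 3 of the 4 genes led by YN3 therefore depended on that library.

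Neither group of the remaining comparisons held YN3. The fit estimates the spread from all 12 libraries together, however, so YN3 still entered the SE and p-values of these comparisons. In aged performing against aged nonperforming rats, Kcnj13 was 4.67 ± 1.34 (SE) higher on the log2 scale and Aqp1 2.87 ± 1.03 higher, both with an adjusted p of 0.50 from limma. With YN3 left out of the fit, the adjusted p from limma was 0.219 for Kcnj13 and 0.222 for Aqp1. For both genes all 3 performing values (14.2 to 61.3 and 103.2 to 446.6) were above all 3 nonperforming ones (0 to 1.91 and 13.4 to 75.1). Groups lay apart in this direction for 2 of the 9 genes and for 10.7% of all genes. Without YP2, AP1 and AP3 the differences were 3.42 and 1.86, with AP2 as the only aged performing library. AP2 also held some bulb RNA, with Cdhr1 at 1866 against 297 to 855.5 in the libraries other than YP2, AP1 and AP3. In the same comparison 11 of 11 bulb genes (median 2.64) and 16 of 16 meningeal genes (median 1.89) had higher means in performing rats, and their part in the differences was not tested. Clic6 was 2.09 higher, Folr1 1.60 and Ttr 0.83, with overlapping groups.

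The group means of Kcnj13 were 41.9 ± 24.6 normalized counts (SD, n = 3) in aged performing and 0.637 ± 1.10 in aged nonperforming rats. Comparing aged with young performing rats, Folr1 was 1.14 higher on the log2 scale, and its aged values (8.99 to 19.0, on 7 to 16 reads) were all above the young ones (4.46 to 5.91, on 5 to 7 reads). Groups lay apart in this direction for 1 of the 9 genes and for 8.63% of all genes. Aqp1 was 1.91 higher, Kcnj13 1.80 and Clic6 1.71, each with overlapping groups, and the smallest adjusted p among the 9 was 0.894 (limma). With YN3 left out of the fit, the adjusted p from limma was 0.453 for Aqp1, 0.531 for Kcnj13 and 0.454 for Clic6. Bulb RNA was high in YP2 and in AP1 and AP3, and lower but raised in AP2.

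**Figure D5:**
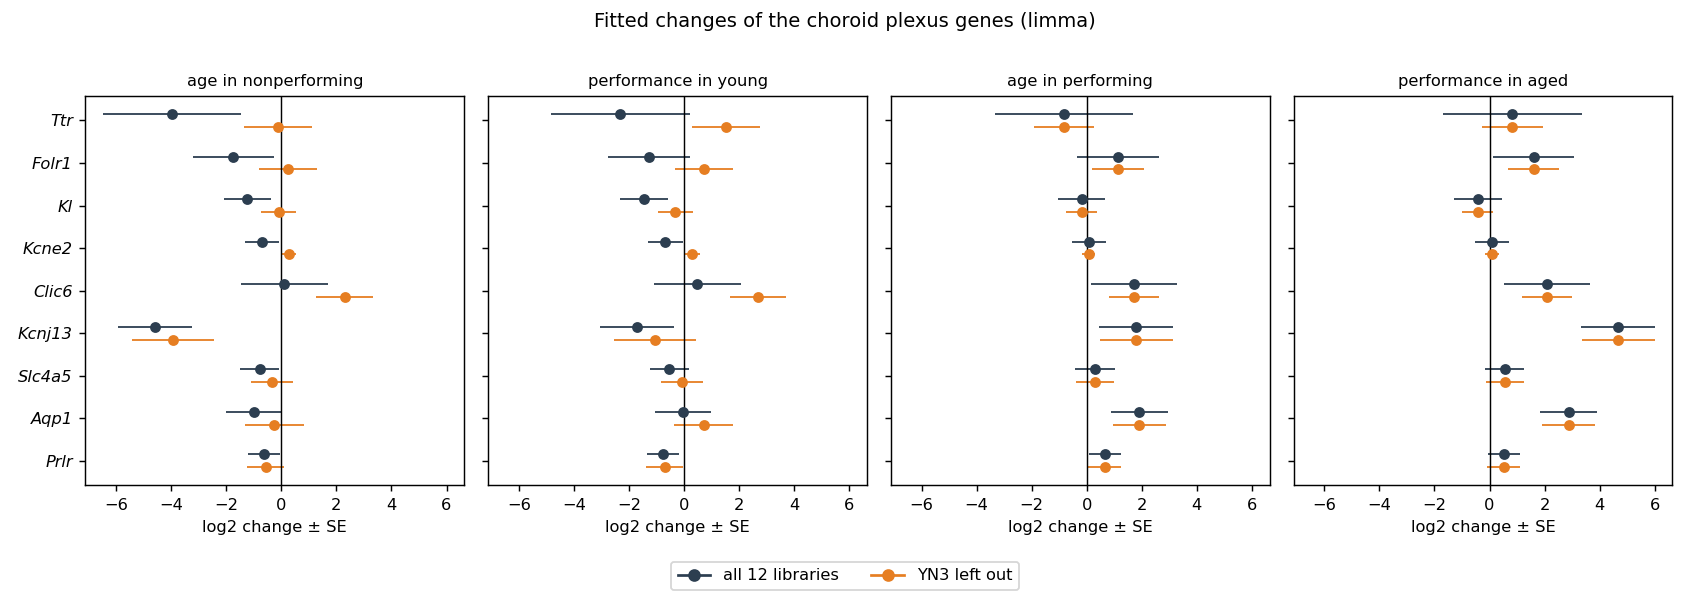
Log2 differences of the 9 genes from limma with bars of 1 standard error, in 4 comparisons, with all 12 libraries (dark) and with YN3 left out (orange). For age in nonperforming rats Ttr moves from -3.97 to -0.12 and Clic6 from 0.11 to 2.30 when YN3 is left out. The log2 differences for age in performing rats and for performance in aged rats stay the same, as neither comparison holds YN3.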

How the data were processed

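RNA of 12 libraries was analysed from the authors' deposited table. Per the submitters' processing notes, Trimmomatic, Bowtie2, TopHat2, HTSeq and DESeq2 were used with the rat build Rnor_6.0; their settings are not given in the sources used here. The kit was stranded, per the labels' protocols. The deposited signal is a normalized count, a gene's reads divided by the library's size factor. Dividing by the smallest step gave whole reads for 100% of values (tolerance 0.01), from 22189094 to 42205582 per library. Differences within groups exceeded counting error.

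Genes with at least 10 in at least 3 libraries (13496) were fitted with limma 3.58.1 (R 4.3.3) on log2(value + 1), 4 group means, two-sided, Benjamini-Hochberg. Alternatives used edgeR 4.0.16 and DESeq2 1.42.0 on the recovered reads, other filters, pseudocounts and weights, and leaving out libraries. The fit was tested on simulated data.

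The members and the 13 gene lists were chosen with earlier results of these data known. All members were to be named, with the 12 genes most like Ttr and, from each list, at most 6 genes of largest mean plus any a result turns on. Lists gave no test of their own. Some list genes are not reported here. No paired analysis was possible because replicate numbers follow sample order only.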

Additional observations from a re-analysis of the deposited data

How the results depend on the processing

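With limma, 0 genes passed in each of the 7 contrasts. With the title prefix as a covariate 0 passed as well, and the median of the 9 genes for age in nonperforming rats was -1.46 instead of -1.0. DESeq2 on the recovered reads called 2 genes for age and 114 for performance averaged over the other factor, 7 for age in nonperforming rats and 89 for performance in aged rats, among them Kcnj13 (log2 difference 5.98, adjusted p 0.0327). Library quality weights, whose estimation stopped before convergence, gave 5 for age and 2837 for performance averaged, 4 for age in nonperforming, 144 for performance in young and 1347 for performance in aged rats, there with Kcnj13 (5.22, adjusted p 0.0377) and Aqp1 (2.94, adjusted p 0.0492); Clic6 passed for performance averaged (2.24, adjusted p 0.0215). Leaving out 1 library gave 0 to 2 genes for performance averaged (2 without YP1) and 0 to 2 for performance in aged rats (2 without YP2), none of them among the 9. A threshold of 0.1 gave 1 for performance averaged, and leaving out YN3, YP2, AP1 and AP3, an alternative chosen after seeing the data, gave 1 for age averaged. The cause of these calls was not tested. At a 5-fold lead in YN3 instead of 10-fold, 4 of the 9 genes counted instead of 1 (14 instead of 4 of all genes); CPM of the recovered reads, TMM and other pseudocounts left 1 at 10-fold. With 1 added to CPM, the log2 leads of Folr1, Kl and Kcne2 were 2.31, 1.60 and 1.78 instead of 3.24, 2.50 and 2.33, and only Ttr of these 4 stayed past 5-fold. On the CPM scale 1 read is far less than 1, so the added 1 itself lowers these leads. Of 612 values of the 9 genes under other pseudocounts, TMM and left-out libraries, 0 passed. With 1 to 93 reads of Ttr outside YN3, and fewer of Folr1 and Prlr, differences between those libraries are limited by depth.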

Other observations

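YN3 also held the lowest value of 4265 of the 15939 genes. Among the partner lists, Slc4a7, a sodium bicarbonate cotransporter, stood at 40.7 normalized counts in YN3 and at 73.8 to 251 in the other libraries. Rfx3, a transcription factor of ciliated cells, stood at 30.7 against 113 to 347. YP3 was the second lowest library for both genes. These genes were chosen after their values were seen.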
